A study of Homo sapiens with 6 samples.

Results

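Mitochondrial ribosomal proteins are the protein subunits of the mitochondrial ribosome, the machine that translates the messenger RNAs of the mitochondrial genome. They are described here in xenograft tumours with and without a knockdown of versican. The members are all protein-coding genes of the deposited count table whose symbol starts with MRPL or MRPS followed by a number. That rule found 78 of 67026 genes (19932 of them protein-coding), of which 49 are named for the large subunit (MRPL) and 29 for the small subunit (MRPS). Of these, 72 had enough counts to be tested, 46 large and 26 small.

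The tumours grew from PC-3, an established line of human prostate cancer, injected under the skin of male NSG mice (NOD.Cg-Prkdcscid Il2rgtm1Wjl/SzJ) aged 4 to 5 weeks. This strain lacks mature lymphocytes and natural killer cells but keeps macrophages, vessels and stroma of its own. Each mouse received the same number of cells in an equal mix of PBS and Matrigel (50% of each). Before injection the cells had been transduced with a lentiviral short hairpin RNA and selected with puromycin, so the control cells also carry a hairpin and its selection. The 2 groups are the knockdown control, whose hairpin targets GFP (shGFP, 3 tumours), and the knockdown of VCAN, the gene of the matrix proteoglycan versican (shVCAN, 3 tumours). The series design is a test of expression differences between these groups. The labels name the hairpin by its target only. A further experimental group that the growth protocol speaks of was not analysed here. The labels number the xenografts 1 to 3 in each group without saying that each came from its own mouse, so p-values measure the spread between these samples, which may in part be technical.

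The mitochondrial ribosome joins proteins imported from the cytosol to 2 ribosomal RNAs transcribed from the mitochondrial genome. Its subunits keep a core of proteins with bacterial relatives and add proteins found only in mitochondria. The products it makes are all hydrophobic subunits of the oxidative phosphorylation complexes, so its loss of function in people gives combined defects of the respiratory chain. All MRPL and MRPS genes lie in the nucleus. Some symbols mislead: MRPS30 and MRPS18A encode proteins that structures place in the large subunit, and MRPS36 encodes a component of the alpha-ketoglutarate dehydrogenase complex.

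Values are normalised read counts (CPM, counts-per-million, scaled by TMM, edgeR's trimmed mean of M-values), and every fold change is shVCAN over shGFP on the log2 scale with its standard error (SE). A gene is said to rise or fall, or to be called, where edgeR's quasi-likelihood test over 16254 genes gave a Benjamini-Hochberg adjusted p under 0.05. Libraries held 11253058 to 13327617 counts, and the lowest count of a tested member in any tumour was 14. VCAN itself had 133, 104 and 121 counts in shGFP tumours 1 to 3 and 69, 39 and 44 counts in shVCAN tumours 1 to 3. Its level fell from 10.6 ± 0.807 to 3.65 ± 1.19 CPM (SD, n = 3; log2 fold change −1.54, SE 0.207, edgeR adjusted p = 4.59e-07). With an exact two-sided permutation test the 6 levels gave p = 0.1, the smallest that 3 against 3 tumours allow. The prostate secretory markers KLK3 and KLK2 were at 0 in all 6 tumours, while the epithelial keratins KRT8, KRT18 and KRT19 were abundant (summed epithelial markers of 1297 to 1431 CPM in shGFP and 1130 to 1172 CPM in shVCAN).

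Most mitochondrial ribosomal protein genes were higher in the shVCAN tumours. Of the 72 tested members, 55 rose, 1 (MRPL38) fell and 16 were not called. Of all 16254 genes tested 40.3% were called, 19.2% as higher and 21.1% as lower. The median log2 fold change of the members was 0.37, a ratio of 1.29, beside 0.0014 for all genes tested. All 3 shVCAN tumours lay above all 3 shGFP tumours in 59 members and below them in 1, where 23.9% of all genes tested lay above and 24.8% below. The rises were modest: none of the members reached a log2 fold change of 1, which 551 of all genes tested (3.39%) did, while 16 large and 5 small subunit members reached 0.5, which 13.4% of all genes did. In tumour RNA, a change in the number of cells of a type and a change in RNA per cell cannot be told apart.

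**Figure D1:**
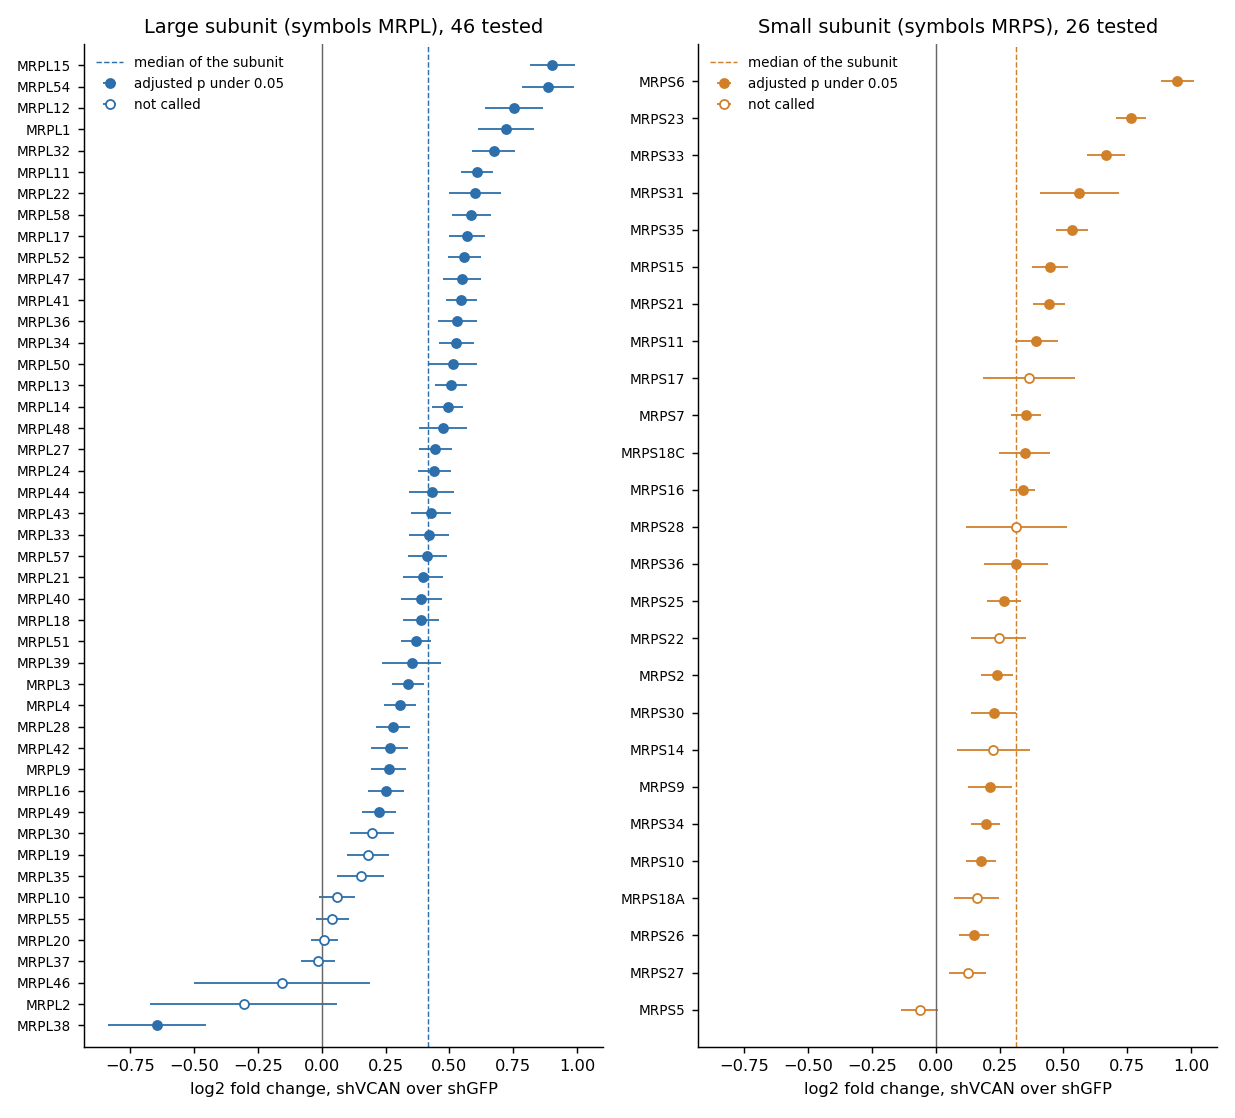
Log2 fold change of each tested member (shVCAN over shGFP, horizontal axis) with its SE, large subunit on the left and small subunit on the right. Filled points have an adjusted p under 0.05, and the dashed lines mark the medians, 0.42 in the large and 0.31 in the small subunit. Only MRPL38 is filled to the left of 0.

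Markers of endothelium, fibroblasts and muscle, and also of epithelium, were mostly lower in the shVCAN tumours while the members were higher. Of 5 epithelial markers 4 fell (KRT8, KRT18, EPCAM and CDH1), CDH1 from 16.5 ± 2.31 to 3.60 ± 0.812 CPM (SD, n = 3). CTNNA1, a catenin gene disrupted in PC-3, fell from 8.84 to 3.97 CPM (edgeR adjusted p = 0.000105). Of 4 tested endothelial markers 3 fell, and the summed level of the 5 listed was 86.5 to 88.1 CPM in shGFP and 48.0 to 52.4 CPM in shVCAN. Of 4 tested fibroblast and pericyte markers 3 fell, with a sum over 6 of 734.5 to 835.3 CPM in shGFP and 304.6 to 407.1 CPM in shVCAN. Of 5 tested skeletal muscle markers 4 fell, with a sum over 6 of 194.0 to 337.0 CPM in shGFP and 141.2 to 214.3 CPM in shVCAN. Those sums overlapped, as did the groups of the called ACTA1 and MYH1, and DESeq2 called only 2 muscle markers lower. Of 3 tested macrophage markers 1 fell and ADGRE1 was not called (0.24), with a sum over 5 of 4.82 to 8.07 CPM in shGFP and 3.66 to 4.73 CPM in shVCAN. The erythroid marker ALAS2 was at 0 in all tumours. The muscle marker TNNT3 was also listed at 0, but it lies beside MRPL23 among other genes listed at 0. CD68, PTPRC, VWF and DCN were at 0 in at least 1 tumour, and the 4 erythroid markers summed to at most 0.278 CPM. A removal of mouse reads was not given in the sources used here, and the part of these cells in the rise of the members was not tested.

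The members' joint level showed the same order in every tumour. Summed over the large subunit, the shGFP tumours 1, 2 and 3 had 2506, 2565 and 2503 CPM and the shVCAN tumours 1, 2 and 3 had 3280, 3239 and 3290 CPM. The small subunit gave 1737, 1783 and 1765 CPM in shGFP and 2241, 2237 and 2270 CPM in shVCAN. Neither sum overlapped between the groups, and within each group the tumours lay close together. The ratios of the group means were 1.30 for the large and 1.28 for the small subunit. As a share of all counts, with no scaling, the members took 0.405% ± 0.0111 in shGFP and 0.585% ± 0.00306 in shVCAN (SD, n = 3), a ratio of 1.44. Messenger RNAs of the mitochondrial genome took 14.9% ± 1.46 of the counts in shGFP and 6.82% ± 0.705 in shVCAN, and a share without scaling moves with that fall.

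**Figure D2:**
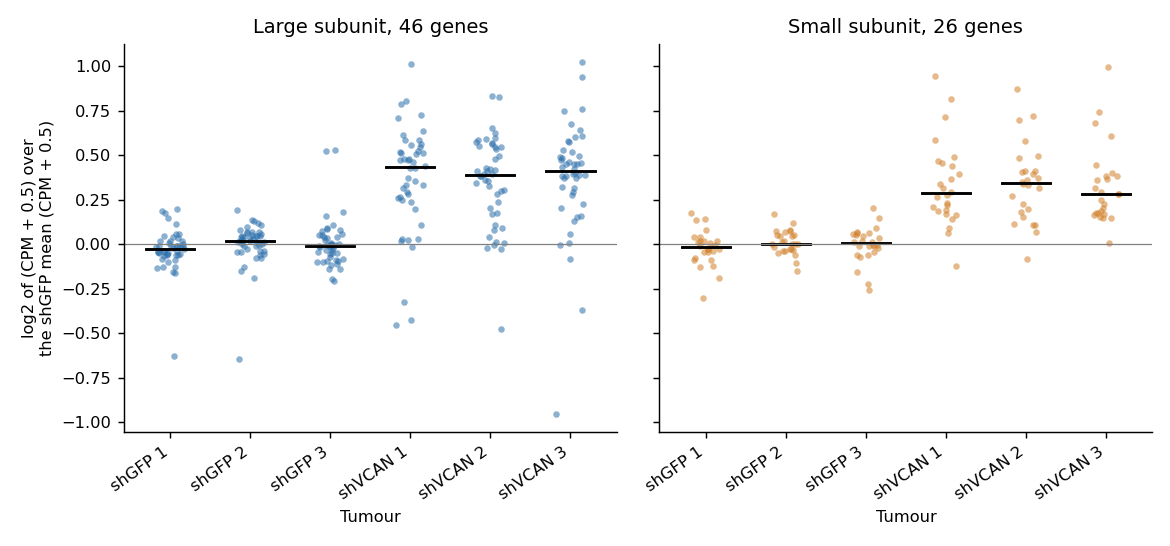
Level of each tested member in each of the 6 tumours, as the log2 ratio of its CPM + 0.5 to the shGFP mean + 0.5 (vertical axis), with 1 point per gene and a bar at the median. The shVCAN medians are 0.436, 0.391 and 0.414 for the large subunit and 0.288, 0.346 and 0.283 for the small subunit, while the shGFP medians lie near 0.

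Most members rose in either subunit. Of 46 tested large subunit members 36 rose, 1 fell and 9 were not called, with a median log2 fold change of 0.42. Of 26 tested small subunit members 19 rose and 7 were not called, with a median of 0.31. No small subunit member fell by edgeR, by DESeq2 or by limma-voom, and none was lower at an unadjusted p under 0.05 in edgeR. The medians differed by 0.103, and that difference was not tested because no p was computed for a score over the members. In the shVCAN tumours the median log2 ratio of the large subunit exceeded that of the small subunit in each of the 3 tumours. The summed CPM of the large over the small subunit was 1.44, 1.44 and 1.42 in shGFP and 1.46, 1.45 and 1.45 in shVCAN. Per kilobase of exonic length that ratio was 1.57, 1.57 and 1.55 in shGFP and 1.68, 1.68 and 1.68 in shVCAN. Both sets of ratios were higher in every shVCAN tumour than in any shGFP tumour, the first by far less than the change of either subunit. When MRPS18A and MRPS30 were counted with the large subunit, where their proteins sit, 37 of 48 large and 18 of 24 small subunit members rose, with medians of 0.41 and 0.33.

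The largest rise among the small subunit members, and among all 72, was in MRPS6, the mitochondrial relative of bacterial ribosomal protein S6. MRPS6 (ENSG00000243927.6, chromosome 21, 34073224 to 34143034, GRCh38) had 59.1, 59.3 and 59.1 CPM in shGFP and 114.5, 109.0 and 118.6 CPM in shVCAN. The shGFP tumours were almost identical and every shVCAN tumour was far above them. Its log2 fold change was 0.95 (SE 0.0647, edgeR quasi-likelihood adjusted p = 5.26e-13). MRPS6 shares 9.61% of its exonic bases with other annotated genes, among them the inositol transporter gene SLC5A3, and reads there could belong to either.

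MRPS23, a small subunit protein found only in mitochondria, shares no exonic base with another gene. It had 89.2, 89.2 and 94.2 CPM in shGFP and 160.3, 150.1 and 152.7 CPM in shVCAN, with no overlap between the groups. The log2 fold change of MRPS23 was 0.76 (SE 0.0592, edgeR adjusted p = 8.21e-12). MRPS33, another mitochondria-specific protein, rose from 46.5 to 73.9 CPM (log2 fold change 0.67, SE 0.074), and MRPS35 rose from 83.2 to 120.5 CPM (0.53, SE 0.0622). MRPS15, which has a bacterial relative, rose from 56.1 to 76.4 CPM (0.45, SE 0.0712). MRPS31 rose from 9.25 to 13.6 CPM (0.56, SE 0.155, edgeR adjusted p = 0.00421), and its call was lost with an offset for length and GC content (0.28, adjusted p = 0.154).

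Among the large subunit members MRPL15 rose most. Its protein is the relative of bacterial L15, a core protein of the subunit. MRPL15 (ENSG00000137547.9) had 29.3, 33.7 and 28.5 CPM in shGFP and 53.6, 54.7 and 62.7 CPM in shVCAN, and the groups were well apart. The log2 fold change was 0.90 (SE 0.088, edgeR adjusted p = 1.05e-09). MRPL54 (ENSG00000183617.5, chromosome 19, 3762664 to 3768575), a mitochondria-specific protein, had 23.4, 21.7 and 19.5 CPM in shGFP and 44.01, 38.6 and 36.8 CPM in shVCAN. Every shVCAN tumour again exceeded every shGFP tumour, with a log2 fold change of 0.89 (SE 0.101, edgeR adjusted p = 2.22e-08). Neither MRPL15 nor MRPL54 shares an exonic base with another annotated gene.

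The stalk of the large subunit, where translation factors land, is built from MRPL10, MRPL11 and MRPL12, a grouping made after the values were seen. MRPL12, which is also known to bind the mitochondrial RNA polymerase, had 17.0, 16.7 and 16.6 CPM in shGFP and 25.99, 26.2 and 32.7 CPM in shVCAN. Its groups did not overlap (log2 fold change 0.75, SE 0.114, edgeR adjusted p = 3.2e-06), but 68.2% of its exonic bases are shared with an overlapping gene, which makes the value uncertain. MRPL11 rose from 70.4 to 107.3 CPM (0.61, SE 0.0639, edgeR adjusted p = 4.93e-09), and only 4.69% of its exonic bases are shared. MRPL10, the protein that anchors the stalk, had 65.6, 71.1 and 74.1 CPM in shGFP and 71.7, 70.9 and 76.9 CPM in shVCAN. Its groups overlapped and it was not called (0.06, SE 0.0696, edgeR adjusted p = 0.53).

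MRPL1, whose bacterial relative forms the mobile stalk on the other side of the subunit, rose from 16.9 to 27.8 CPM (0.72, SE 0.111, edgeR adjusted p = 4.15e-06). MRPL32, a protein that the m-AAA protease of the inner membrane must cut before it joins the ribosome, had 31.3, 29.6 and 30.1 CPM in shGFP and 50.02, 46.2 and 48.8 CPM in shVCAN. All 3 shVCAN tumours were higher (0.67, SE 0.0838, edgeR adjusted p = 1.16e-07). MRPL58 is a peptidyl-tRNA hydrolase that frees stalled chains and is also built into the large subunit. It rose from 45.7 to 68.6 CPM (0.59, SE 0.075, edgeR adjusted p = 1.87e-07). Near the exit tunnel, where new chains leave the ribosome (again grouped after the values were seen), MRPL22 and MRPL24 rose by 0.60 (SE 0.102) and 0.44 (SE 0.0658), while MRPL23 and MRPL45 could not be tested.

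MRPL38 was the only member that fell. It belongs to the central protuberance of the large subunit, which in mitochondria is largely made of proteins without bacterial relatives. MRPL38 (ENSG00000204316.13, chromosome 17, 75898643 to 75905413) had 7.98, 10.1 and 8.29 CPM in shGFP and 6.30, 6.19 and 4.29 CPM in shVCAN. The shVCAN tumours were all lower, with a log2 fold change of −0.65 (SE 0.192, edgeR adjusted p = 0.0074). Leaving out shGFP tumour 2 ended the call (adjusted p = 0.056), as did leaving out shVCAN tumour 3 (adjusted p = 0.0573). Of its exonic bases, 41.1% are shared with overlapping genes. Its neighbours in the central protuberance, put together after the values were seen, went other ways: MRPL40 rose by 0.39 (SE 0.0798), MRPL48 rose by 0.48 (SE 0.0948), and MRPL46, with 1.496 to 3.92 CPM over the 6 tumours, was not called (−0.16, SE 0.344).

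Promoter sequence was compared because the members moved together and the regulators NRF1, GABPA and YY1 are known to bind promoters of many nuclear genes for mitochondrial proteins. RefSeq (GRCh38.p14) gave a window of 250 bases before to 50 bases after the start for 69 of the 78 members. A short motif was searched on both strands for each of 5 factors or sites. The letters CCGGAAG, bound by GABPA and other ETS factors, were in 29 of 69 member windows (42.0%) and in 12.8% of 22048 windows of protein-coding genes. The YY1 letters AAGATGGCG were in 13 member windows (18.8%), beside 2.41%. The NRF1 letters GCGCNTGCG were in 11 (15.9%, beside 9.45%), the E-box CACGTG in 6 (8.70%, beside 8.31%) and the cAMP response element TGACGTCA in 0 (beside 2.25%). No member had GABPA and YY1 letters that overlapped. Members entered by gene and the background by distinct start, expressed or not, and no share over the tested genes was computed. These are matches of letters, not sites shown to be bound.

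Windows before the start are shown for 3 of the largest rises and for the flat MRPL20, chosen after their values were seen, to set motif and response side by side. Capitals mark the GABPA letters on either strand, and each sequence runs 5′ to 3′ on the gene's strand. MRPL54 is chr19:3762432-3762681 (plus strand), MRPS23 is chr17:57850045-57850294 (minus strand), MRPL12 is chr17:81703117-81703366 (plus strand) and MRPL20 is chr1:1407294-1407543 (minus strand).
MRPL54: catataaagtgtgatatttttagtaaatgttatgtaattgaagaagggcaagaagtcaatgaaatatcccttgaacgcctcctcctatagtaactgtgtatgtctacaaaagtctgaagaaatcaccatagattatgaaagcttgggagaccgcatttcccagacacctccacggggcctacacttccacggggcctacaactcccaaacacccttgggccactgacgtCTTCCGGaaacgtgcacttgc
MRPS23: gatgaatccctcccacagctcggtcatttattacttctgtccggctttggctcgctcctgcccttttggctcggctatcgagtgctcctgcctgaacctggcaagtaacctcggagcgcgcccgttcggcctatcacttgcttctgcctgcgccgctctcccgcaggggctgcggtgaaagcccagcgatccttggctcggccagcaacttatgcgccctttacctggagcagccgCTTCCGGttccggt
MRPL12: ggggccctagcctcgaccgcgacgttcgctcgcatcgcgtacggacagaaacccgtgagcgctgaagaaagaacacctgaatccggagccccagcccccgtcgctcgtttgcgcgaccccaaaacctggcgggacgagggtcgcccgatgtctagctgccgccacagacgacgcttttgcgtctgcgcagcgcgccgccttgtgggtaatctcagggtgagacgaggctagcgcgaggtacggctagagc
MRPL20: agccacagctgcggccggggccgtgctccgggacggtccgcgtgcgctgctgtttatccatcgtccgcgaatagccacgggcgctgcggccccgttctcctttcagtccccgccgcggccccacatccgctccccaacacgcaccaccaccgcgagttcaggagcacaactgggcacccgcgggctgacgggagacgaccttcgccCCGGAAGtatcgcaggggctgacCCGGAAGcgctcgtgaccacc

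MRPL54 and MRPS23 each hold the GABPA letters close to the start, and both rose. MRPL20 holds them in both of its marked places, also has NRF1 letters past the start, outside the printed bases, and was flat. The window of MRPL12 holds none of the 5 motifs and that gene rose. The window of MRPS6, the largest rise, holds none either. That of MRPS5, which was not called (−0.06, SE 0.0723), also holds none. MRPL15, the largest rise in the large subunit, had no window. Over the tested members with a window, the median log2 fold change was 0.37 in the 27 with GABPA letters and 0.39 in the 37 without. It was 0.27 in the 11 with YY1 letters and 0.39 in the 53 without, and 0.45 in the 10 with NRF1 letters and 0.37 in the 54 without. These medians are descriptions with no test.

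None of the genes of these regulators was called higher. NRF1 had a log2 fold change of −0.34 (SE 0.129, edgeR adjusted p = 0.037) with groups that overlapped, YY1 of −0.16 (SE 0.059, edgeR adjusted p = 0.0272) and GABPA of −0.13 (SE 0.108, edgeR adjusted p = 0.363). The call of NRF1 was lost with DESeq2, upper quartile factors or library size alone and without shGFP tumour 1 or 3 or shVCAN tumour 1 or 3 (adjusted p = 0.0658 to 0.301). That of YY1 was lost with upper quartile factors, no filter and without shGFP tumour 1 or 2 or shVCAN tumour 1 or 2 (adjusted p = 0.0627 to 0.149). The log2 fold change of YY1 was −0.0084 with the offset and 0.0032 with library size alone. GABPA was called lower with the offset only (−0.25, adjusted p = 0.0388). Of 12 tested nuclear regulators of mitochondrial genes 6 fell and 6 were not called, with a median log2 fold change of −0.18, where 21.1% of all genes fell. None rose by edgeR, by DESeq2 or by limma-voom, and none was higher at an unadjusted p under 0.05 in edgeR. GABPB2, a partner of GABPA, had 17.4, 19.6 and 19.4 CPM in shGFP and 12.3, 11.5 and 10.99 CPM in shVCAN, with no overlap (−0.69, SE 0.128, edgeR adjusted p = 5.7e-05). The other listed partner, GABPB1, had 24.2 CPM in shGFP and 27.1 CPM in shVCAN and was not called (0.17, SE 0.102, edgeR adjusted p = 0.203). Its shVCAN tumours lay wholly above its shGFP tumours, and it was the only listed regulator with a log2 fold change above 0. CREB1, a cAMP-responsive factor, fell from 44.96 to 36.2 CPM (−0.31, SE 0.081, edgeR adjusted p = 0.0025). Scaling by library size alone ended that call (adjusted p = 0.161). The count of 6 became 1 with library size alone, and 3, 3 and 2 without shGFP tumour 1, shGFP tumour 2 and shVCAN tumour 1.

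The 3 members of each subunit with the highest level per kilobase of exonic length in shGFP rose. In the large subunit MRPL14 led with 81.8 ± 2.65 CPM per kilobase in shGFP and 115.1 ± 3.51 in shVCAN, before MRPL51 (68.4 ± 1.22 and 88.3 ± 4.61) and MRPL41 (61.8 ± 1.85 and 90.1 ± 0.823; SD, n = 3 throughout). The next, MRPL20 (59.6 ± 1.95 and 60.0 ± 0.608), was not called. Across the 72 members the Spearman correlation of fold change with the CPM level in shGFP was −0.105, and genes are not independent replicates. MRPL14, a core protein of the face that meets the small subunit, had a log2 fold change of 0.49 (SE 0.0626), and MRPL51 and MRPL41 had 0.37 (SE 0.0597) and 0.55 (SE 0.0616). In the small subunit MRPS16 led with 121.4 ± 6.62 CPM per kilobase in shGFP and 153.6 ± 5.60 in shVCAN, and its log2 fold change was 0.34 (SE 0.0497, edgeR adjusted p = 1.86e-06). MRPS34 (110.3 ± 2.45 to 126.3 ± 2.86) and MRPS26 (110.3 ± 0.795 to 122.3 ± 6.39) followed with smaller log2 fold changes of 0.20 (SE 0.0569) and 0.15 (SE 0.0583). The levels of MRPS34 and MRPS26 in shGFP did not differ beyond their spread. Overlapping genes share 31.3% of the exonic bases of MRPL51 and 14.9% of those of MRPS16. The call of MRPS26 (edgeR adjusted p = 0.0403) was lost with the offset (adjusted p = 0.878), with DESeq2 (adjusted p = 0.059) and without shGFP tumour 1, 2 or 3 or shVCAN tumour 1 or 3 (adjusted p = 0.0588 to 0.221). That of MRPS34 (adjusted p = 0.00634) was lost with the offset (adjusted p = 0.439).

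The 3 paralogs of bacterial S18 sit at different places of the ribosome and were measured unequally. MRPS18C, the one at the bacterial site in the small subunit, had 22.5, 22.3 and 22.0 CPM in shGFP and 28.8, 28.8 and 27.4 CPM in shVCAN, and rose (0.35, SE 0.1, edgeR adjusted p = 0.00567). MRPS18A, whose protein sits in the large subunit, had 42.5, 43.7 and 34.4 CPM in shGFP and 46.6, 43.6 and 44.6 CPM in shVCAN. Its groups overlapped and it was not called (0.16, SE 0.0884, edgeR adjusted p = 0.153). MRPS18B had 0 counts in all 6 tumours. Overlapping genes share 40.2% of the exonic bases of MRPS18C and 47.0% of those of MRPS18A.

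MRPS30, also a large subunit protein in structures, was the only called member whose groups overlapped. It had 49.1, 39.1 and 42.2 CPM in shGFP and 49.7, 47.0 and 56.1 CPM in shVCAN, so shGFP tumour 1 lay among the shVCAN tumours. Its log2 fold change was 0.23 (SE 0.0882, edgeR adjusted p = 0.0397). That call was lost with the offset, with DESeq2 and without shGFP tumour 2 or 3 or shVCAN tumour 1 or 3 (adjusted p = 0.0687 to 0.409). MRPS36, the dehydrogenase component, had 13.5, 14.6 and 13.2 CPM in shGFP and 17.3, 15.9 and 18.1 CPM in shVCAN. Its log2 fold change of 0.31 (SE 0.126, edgeR adjusted p = 0.046) turned to −0.115 (adjusted p = 0.502) with the offset. It was not called with the replicate block, without the filter, with DESeq2 or limma-voom, or without shGFP tumour 1 or 3 or shVCAN tumour 1 or 3 (adjusted p = 0.0511 to 0.15).

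The 16 members that were not called are named here after their values were seen. They are MRPL2, MRPL10, MRPL19, MRPL20, MRPL30, MRPL35, MRPL37, MRPL46 and MRPL55 in the large subunit and MRPS5, MRPS14, MRPS17, MRPS18A, MRPS22, MRPS27 and MRPS28 in the small subunit. Of these, 12 had a log2 fold change above 0 and 4 below it (MRPL2, MRPL37, MRPL46 and MRPS5). In 5 of them, MRPL19, MRPS14, MRPS22, MRPS27 and MRPS28, the shVCAN tumours lay wholly above the shGFP tumours. MRPL2, a core protein near the catalytic centre, had few counts, with 1.30 to 3.55 CPM over the 6 tumours, and its log2 fold change of −0.31 had an SE of 0.367. MRPL20 was flat at 166.2 CPM in shGFP and 167.3 CPM in shVCAN (0.01, edgeR adjusted p = 0.905).

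Members with bacterial relatives and members found only in mitochondria both rose for the most part, in a grouping made after the values were seen. Of 44 tested members of bacterial families, the S18 paralogs included, 32 rose, with a median log2 fold change of 0.36. Of 27 tested mitochondria-specific members 22 rose and 1 fell, with a median of 0.39. MRPS36 is in neither class. Within the large subunit the medians of the classes were 0.42 (29 members) and 0.41 (17 members), and within the small subunit 0.34 (15 members) and 0.26 (10 members).

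The remaining 6 members could not be tested. MRPL23, MRPL53, MRPS12 and MRPS18B had 0 counts in all 6 tumours, MRPL45 had 2 counts in all and MRPS24 had 17. For these genes a level at or near 0 is a listed value and was not read as absence. Beside MRPS18B, MRPS12 and MRPL45, genes that nearly every cell uses were listed at 0. Within 500 kilobases of MRPS18B, 28 of 31 other protein-coding genes had 0 counts, among them the tubulin gene TUBB and FLOT1. Around MRPS12 it was 16 of 33, with the actinin gene ACTN4 and the initiation factor gene EIF3K among them. Around MRPL45 it was 9 of 17, with the proteasome subunit gene PSMB3. Around MRPL23 it was 15 of 29, but CTSD in that stretch held 10208 counts in all. Over all protein-coding genes 17.2% had 0 counts. MRPL53 and MRPS24 had fewer such neighbours (1 of 29 and 3 of 17), but both overlap other genes, with 45.2% and 23.2% of their exonic bases shared. Named pseudogenes of the family (79 rows) held 11 to 30 counts per tumour, against 46838 to 77823 counts in the members.

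Members with and without exonic bases shared with another gene were counted apart. Of the 35 tested members that share none with another annotated gene, 32 rose (median 0.44), 21 of 24 in the large subunit (median 0.46) and 11 of 11 in the small subunit (median 0.44). Of the 37 that share some, 23 rose and 1 fell, with a median of 0.28. This difference was not tested. How the counting program treated strand and overlap, a setting not given in the sources used here, decides whether reads of overlapping genes were split or dropped.

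The members' median exonic length was 2544 bases, beside 4592 for all genes tested with a length. Across the 72 members the fold change fell with exonic length (Spearman −0.209), as it did across 15997 genes (−0.227). By subunit the value was −0.387 over the 46 large and 0.136 over the 26 small subunit members, and genes are not independent replicates. When each tumour's trend with length and GC content was taken out by an offset, 46 members rose and 1 fell, where 19.4% of all genes rose and 19.3% fell. Of the 55 rises, 45 were called with both and 10 were lost, in MRPL9, MRPL16, MRPL39, MRPS9, MRPS10, MRPS26, MRPS30, MRPS31, MRPS34 and MRPS36, while MRPS27 was called with the offset only (adjusted p = 0.0378). The median became 0.27 in the large and 0.21 in the small subunit, 33 and 13 members rose in them, and the all-gene median was 0.01. With library size alone 67 members rose and 1 fell, where 32.2% of all genes rose and 11.6% fell (5228 and 1890 genes, in place of 3120 and 3425). That scaling moved the all-gene median to 0.17, and the members' median of 0.53 stood 0.366 above it. Under all 17 settings of scaling, filter, model and left-out tumour, 44 members were called higher, 32 in the large and 12 in the small subunit. The same count over all genes was not made, so no share stands beside it.

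**Figure D3:**
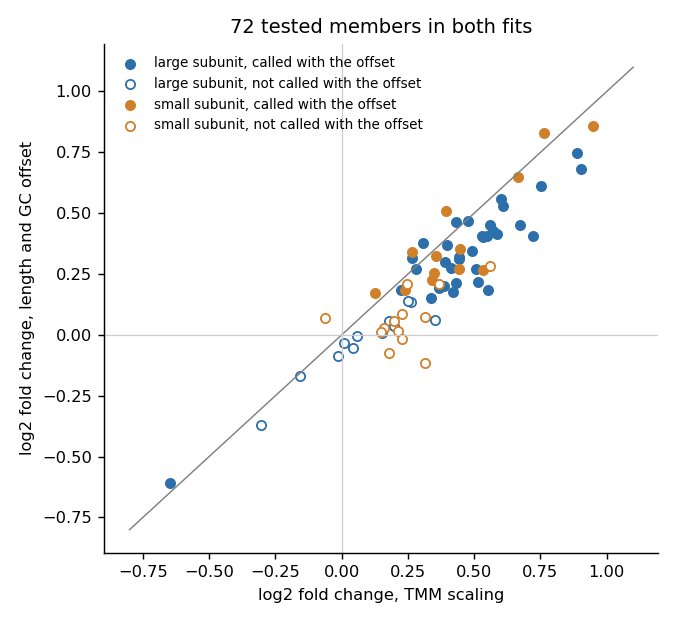
Log2 fold change of each tested member with TMM scaling (horizontal axis) and with the length and GC offset (vertical axis), with the line of equality. Most points lie below the line, the members' median going from 0.37 to 0.24, and 46 members are called higher with the offset.

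The ribosomal RNAs of the mitochondrial ribosome fell while its proteins' messages rose. MT-RNR1, the RNA of the small subunit, had 7930, 7683 and 8043 CPM in shGFP and 5036, 5393 and 5879 CPM in shVCAN (−0.54, SE 0.0428, edgeR adjusted p = 1.62e-11). MT-RNR2, the RNA of the large subunit, had 29480, 24260 and 27450 CPM in shGFP and 11670, 11460 and 15260 CPM in shVCAN (−1.08, SE 0.0668, edgeR adjusted p = 5.5e-14). Both were lower in every shVCAN tumour. The level of these RNAs depends on how the library preparation removed or selected RNA, a step not given in the sources used here. All 13 messenger RNAs of the mitochondrial genome fell, with a median of −1.40. MT-ND4L, a subunit gene of complex I, went from 1832 to 470.2 CPM and MT-ND4 from 21450 to 7759 CPM.

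**Figure D4:**
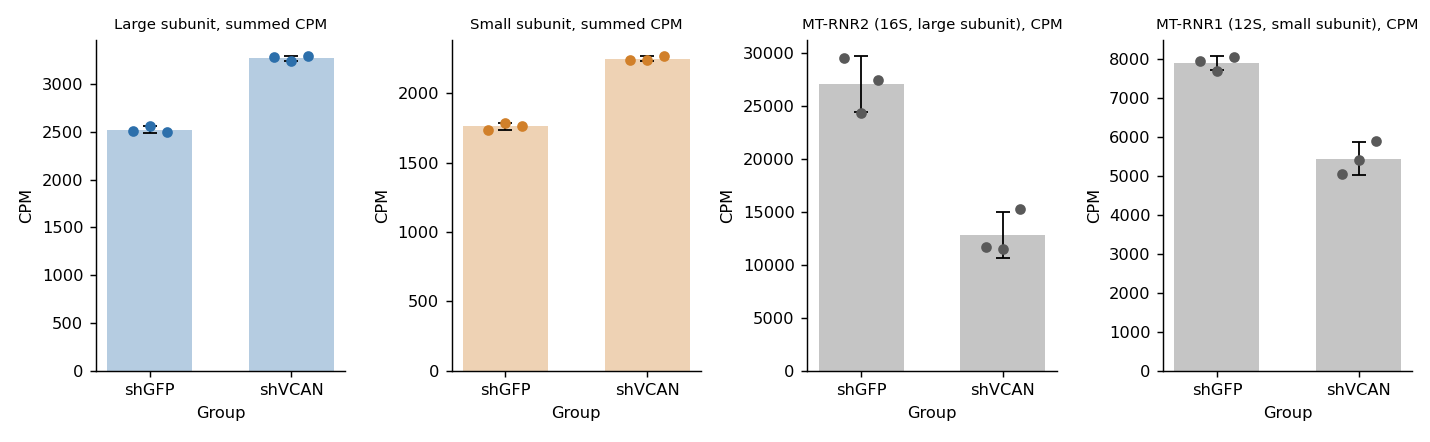
Summed CPM of the large and small subunit members and CPM of the 2 mitochondrial ribosomal RNAs, by group, with 1 point per tumour, bars at the mean and error bars of 1 SD (n = 3). The protein sums are higher and the RNAs lower in shVCAN, with no overlap in any panel.

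Genes that work with the mitochondrial ribosome were mixed. Of 5 tested ribosome proteins with other symbols 4 rose, with a median log2 fold change of 0.28. CHCHD1 had 171.6, 172.3 and 179.8 CPM in shGFP and 248.9, 251.9 and 255.9 CPM in shVCAN (0.53, SE 0.0513), and GADD45GIP1, also called CRIF1, rose from 178.4 to 261.0 CPM (0.55, SE 0.0571). AURKAIP1 and PTCD3 also rose, and DAP3, a GTP-binding protein of the small subunit, was not called (0.09, SE 0.0639). Of 25 assembly and rRNA maturation factors 8 rose and 3 fell, with a median of 0.039, where 19.2% of all genes rose and 21.1% fell. NDUFAB1, the mitochondrial acyl carrier protein, rose from 86.9 to 123.4 CPM and MTERF3 from 40.4 to 54.6 CPM. METTL17, which acts in small subunit assembly, fell from 72.9 to 60.1 CPM, and RCC1L fell from 69.0 to 59.3 CPM. With library size alone neither was called (adjusted p = 0.219 and 0.611).

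Translation factors rose in part, 8 of 18 (44.4%, beside 19.2% of all genes), with a median of 0.19. None was called lower by edgeR, DESeq2 or limma-voom (1 was lower at an unadjusted p under 0.05 in edgeR). SLIRP, which binds mitochondrial messenger RNA with LRPPRC, rose from 37.2 to 52.0 CPM, and TACO1, an activator of COX1 translation, from 65.3 to 83.1 CPM. In transcription and RNA processing of the mitochondrial genome 8 of 20 rose (40.0%) and 3 fell, with a median of 0.21, where 21.1% of all genes fell. TRMT10C, a subunit of mitochondrial RNase P, rose from 51.8 to 78.3 CPM, and SSBP1, the single-stranded DNA binding protein, from 24.6 to 41.9 CPM. FASTKD5 fell from 34.0 to 28.0 CPM and the tRNA-processing nuclease ELAC2 from 118.4 to 103.8 CPM. Of 11 mitochondrial proteases 2 rose (18.2%, near the 19.2% of all genes), PMPCB and MIPEP, by 0.21 (SE 0.073) and 0.25 (SE 0.1). The calls of RCC1L, FASTKD5, ELAC2, PMPCB and MIPEP were each lost without shGFP tumour 3 and without shVCAN tumour 1 (adjusted p = 0.0505 to 0.319). The offset ended those of RCC1L, ELAC2, PMPCB and MIPEP (adjusted p = 0.105 to 0.79), and library size alone those of FASTKD5 and ELAC2 (adjusted p = 0.349 and 0.826). ELAC2 went from −0.19 to −0.02 in both, and its call was lost with upper quartile factors too (adjusted p = 0.0661). DESeq2 ended the call of PMPCB (adjusted p = 0.0575). MIPEP was also lost with DESeq2, limma-voom, the replicate block, no filter and mitochondrial genes left out of the scaling (adjusted p = 0.0503 to 0.122).

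The smaller counts of these lists changed with the tumours and settings used. Over all genes 3120 were called higher and 3425 lower, and 2596 to 3086 and 2938 to 3438 with a tumour left out. The part of a tumour and the loss of power cannot be told apart. Proteases called higher were 1, 1 and 0 without shGFP tumour 1, 2 and 3, and 0 and 0 without shVCAN tumour 1 and 3. Genes of the transcription and processing list called lower were 1 and 0 without shGFP tumour 2 and 3, and 0 and 1 without shVCAN tumour 1 and 3, while those called higher were 5 without shVCAN tumour 1. Translation factors called higher were 5 without shVCAN tumour 3, 5 with DESeq2 and 4 with the length and GC offset, which also ended the call of MTERF3 (adjusted p = 0.113).

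Genes of other complexes rose as well. Of 81 tested cytosolic ribosomal proteins 70 rose, with a median log2 fold change of 0.32, and of 72 nuclear oxidative phosphorylation subunits 51 rose and 1 fell, with a median of 0.39. RPL9 of the cytosolic large subunit rose from 380.8 to 810.8 CPM, above any member in fold. COX7B, a subunit of cytochrome c oxidase, rose from 64.7 to 131.7 CPM, and UQCRC1, a core subunit of complex III, fell from 254.0 to 227.4 CPM. The call of UQCRC1 was lost without shGFP tumour 2 or 3 or shVCAN tumour 1 and with upper quartile factors (adjusted p = 0.0507 to 0.254), and its log2 fold change was 0.007 (adjusted p = 0.94) with library size alone.

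**Figure D5:**
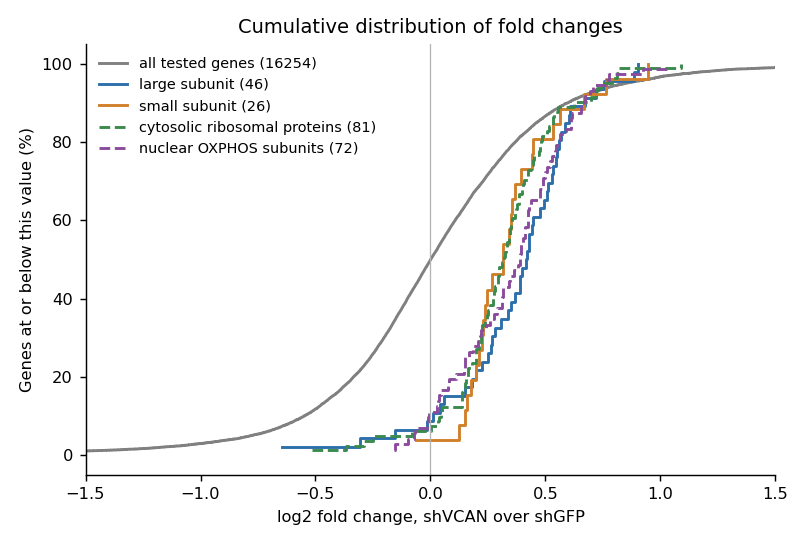
Cumulative share of genes (vertical axis, %) at or below each log2 fold change (horizontal axis) for all 16254 tested genes, the 2 subunits of the mitochondrial ribosome, cytosolic ribosomal proteins and nuclear oxidative phosphorylation subunits. The 4 lists run close together, with medians of 0.31 to 0.42, to the right of all genes, whose median is 0.0014.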

How the data were processed

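RNA-seq of xenograft tumours was read as paired 150 bp reads, per the labels' protocols. STAR, Trim Galore, DESeq2 and the human build hg38 appear in the submitters' processing notes. The authors deposited raw whole-number counts per Ensembl gene, with counter, annotation release, strand setting and any filter against mouse sequence not given in the sources used here. From 67071 rows, 45 second pseudoautosomal copies (0 counts) were dropped. A symbol table named 60370 identifiers, GENCODE 29 another 289, and 6367 stayed unnamed. Coordinates, exonic length and shared exonic bases came from GENCODE 29 (GRCh38), promoter windows from RefSeq.

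Counts were tested in edgeR 4.0.16 by quasi-likelihood (R 4.3.3; TMM, filterByExpr, group as the only term), adjusted over 16254 genes, and the SE is the log2 fold change divided by the square root of F. Alternatives were DESeq2 1.42.0 size factors and Wald test, upper quartile factors, library size alone, scaling without mitochondrial genes, a length and GC offset, no filter, 1 CPM in 3 samples, the replicate block, limma-voom (limma 3.58.1), each tumour left out and an adjusted p under 0.01. The edgeR fit was also run on simulated data with the same dispersion for every gene and few changed genes. That run does not cover changes as wide as those here. CPM were computed from the deposited counts.

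The members and gene lists were chosen with earlier results of these data known. Named members are those called at 5 CPM or more in the higher group without overlap (the 6 largest rises and falls per subunit), the 3 highest per exonic length in each, 8 structural cases and untested members. Up to 2 called genes per direction were named from each pathway list, and 1 from each comparison list. The chi-square per gene between libraries was 3.45 to 6.61 within groups and 48.9 to 83.5 between them. Each library was counted as 1 sample, but these values cannot tell separate tumours from separate preparations of the same tumour.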

Additional observations from a re-analysis of the deposited data

How the results depend on the processing

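With upper quartile factors the median log2 fold changes of all members, the large and the small subunit were 0.4064, 0.4569 and 0.3533, with library size alone 0.5336, 0.5853 and 0.4805, and with the length and GC offset 0.2414, 0.2738 and 0.2094. Counts of members called higher stayed within 1.5 times in all of these. Genes of the pathway lists called lower, 27 in all, were 16 with library size alone and 12 with mitochondrial genes left out of the scaling, where 15 of them are not tested. Leaving out each tumour in turn gave 49 to 56 members higher and 0 to 1 lower, 0 to 1 lower in the large subunit, and large subunit medians of 0.3941 to 0.4353. Over all genes those fits called 2596 to 3086 higher and 2938 to 3438 lower. Among members with no shared exonic base 21 large subunit members rose, 0 fell and the median was 0.4597, and 11 small subunit members rose with a median of 0.4434; fewer genes enter these counts. MRPS36 turned to −0.115 with the offset and UQCRC1 to 0.006977 with library size alone, and the cause was not tested. Of 795 recomputed values of 47 named genes, 720 kept direction and side of the threshold, 72 lost the call, 1 gained it (MRPS18A, adjusted p = 0.00343 with library size alone) and 2 reversed. Tumours with the same number did not deviate together (correlations of 0.0176, 0.0157 and −0.0271), so the numbers were not taken as pairs. With the replicate block 54 members rose and 1 fell, with a median of 0.3682. Depth limits the low members: MRPL2 and MRPL46 had SEs of 0.367 and 0.344, about as large as the median rise of the members.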
